A study of Mus musculus with 2 samples.

Results

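The genes described here mark the stages through which an oligodendrocyte, the myelinating cell of the central nervous system, passes from a dividing precursor to a mature cell. They were chosen by symbol, 33 of the 55536 annotated genes, and all 33 had rows in the deposited gene and transcript tables. The list was divided by its own order into 5 precursor genes, 10 genes of differentiating cells, 3 genes of galactolipid synthesis and 15 genes of mature cells. Total RNA-seq was run on hippocampal tissue of female B6CASTF1/J mice aged 14 days, a first-generation hybrid of the C57BL/6J and CAST/EiJ strains; the spike-in label names stranded libraries with ribosomal RNA reduced. No allele, treatment or second age was compared, so the data hold 1 group of 2 libraries, called replicate 1 and replicate 2 after the labels. Each library lists 3 females and was made from 300 ng of RNA with ERCC spike-ins, which are synthetic RNAs of known amount. The labels do not say whether the 3 females were pooled. They name a hippocampal layer without saying which, and both libraries carry 1 donor identifier, so the spread between them may be partly technical. Replicate 1 held 33321573 expected counts on annotated genes and replicate 2 held 32740837.

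Oligodendrocyte precursors are kept dividing by platelet-derived growth factor acting on its receptor, and the factors Olig1, Olig2 and Sox10 hold the lineage from precursor to mature cell. On leaving the cycle, cells pass through a short-lived state marked by the receptor Gpr17 and the protein Bcas1, switch on the regulator Myrf and begin to make the galactolipids and proteins of the sheath. In the mouse hippocampus, myelination is under way in the weeks after birth, when precursors, newly formed cells and myelinating cells are found side by side.

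Some results below turn on which annotated transcript carried the reads, so coding exons that tell apart the transcripts compared for 3 members are shown first. They are copied from the GENCODE M21 transcripts (mm10) and run 5′ to 3′ on the gene's strand. The exon of 75 bases in Enpp2 lies at chr15:54851348-54851422 on the minus strand, encodes 25 codons and is present in transcript Enpp2-202 but not in Enpp2-201.
Enpp2-202 exon: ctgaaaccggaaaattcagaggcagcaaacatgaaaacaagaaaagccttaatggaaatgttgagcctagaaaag
The exon of 47 bases in Sirt2 lies at chr7:28767632-28767678 on the plus strand and is present in Sirt2-201, which led in the second quantification, but not in Sirt2-202, which led in the first.
Sirt2-201 exon: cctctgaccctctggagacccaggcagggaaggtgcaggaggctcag
In Bcas1, on the minus strand of chromosome 2, Bcas1-201 holds coding exons that Bcas1-208 lacks. Those that keep the reading frame have 42 bases (chr2:170370450-170370491), 165 bases (chr2:170366364-170366528) and 66 bases (chr2:170356248-170356313), given in that order.
Bcas1 exon of 42 bases: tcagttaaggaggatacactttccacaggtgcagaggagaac
Bcas1 exon of 165 bases: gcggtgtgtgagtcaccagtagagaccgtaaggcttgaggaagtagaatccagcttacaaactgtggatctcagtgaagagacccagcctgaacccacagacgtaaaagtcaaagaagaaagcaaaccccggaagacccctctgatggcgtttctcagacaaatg
Bcas1 exon of 66 bases: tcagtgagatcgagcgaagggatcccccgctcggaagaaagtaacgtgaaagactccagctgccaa

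Genes of every stage were present, and the mature genes had the highest median. Levels are in TPM of the first quantification, a share of all transcripts scaled to 1 fixed total per library, which divides by transcript length and so allows genes to be compared; a mean is over both libraries with its SD (n = 2). The median was 38.1 ± 0.516 TPM for the mature genes, 20.97 ± 2.36 for the precursor genes, 12.7 ± 0.141 for the differentiating genes and 12.0 ± 1.69 for the galactolipid genes. For lists of genes, the value is the median of the genes' means. The SD is that of the libraries' own medians, which need not centre on that value. Across detected nuclear protein-coding genes the median was 14.9 TPM. Detection, set at 1 TPM or more in each library, was reached by 32 of the 33 genes, against 58.6% of all nuclear protein-coding genes; the exception was Ninj2. Stages overlapped widely: the precursor genes ran from 13.9 (Cspg4) to 84.9 TPM (Olig1), the differentiating genes from 2.12 (Nkx6-2) to 53.8 (Bcas1), and Aspa, a marker of mature cells, was lower than each of the 5 precursor genes in both libraries. In bulk tissue, fewer cells of a stage and less RNA per cell cannot be told apart.

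**Figure D1:**
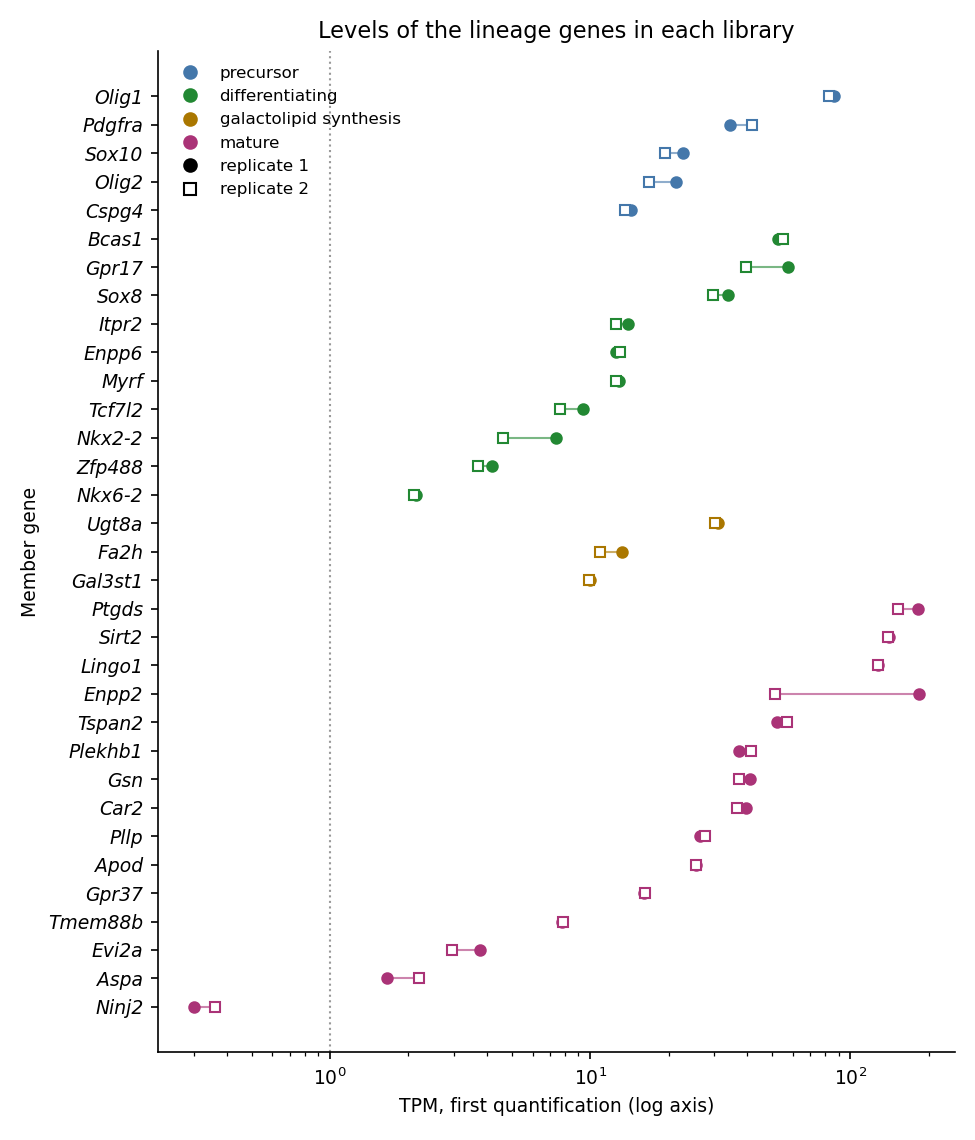
TPM of each member in the first quantification on a log axis, grouped by stage; filled circles are replicate 1, open squares replicate 2, lines join the libraries, and the dotted line marks 1 TPM. All members but Ninj2 lie above 1 TPM, and only Enpp2 (182.64 and 51.30) shows libraries far apart on this axis.

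The transcription factors of the lineage were led by Olig1, a basic helix-loop-helix factor, at 86.77 TPM in replicate 1 and 82.96 in replicate 2. Its neighbour on chromosome 16, Olig2, which specifies the lineage, stood at 21.33 and 16.75, and Olig1 exceeded it 4.51 ± 0.626 times. Sox10, the factor that drives myelin gene transcription, had 22.64 and 19.30 TPM. Sox8, its close relative of the SoxE family, had 33.93 and 29.64, so that Sox10 was at 0.659 ± 0.0114 of Sox8 and the libraries' ranges did not overlap. Sox8 shares 329 exonic bases with the antisense gene 2810468N07Rik, which was itself at 16.23 and 17.48 TPM, so its level is uncertain, since the strand setting used in counting is not given. Olig1 over Olig2 and Sox8 over Sox10 held in both libraries.

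Apart from Sox8, described above, the transcription factors among the differentiating genes were lower than Olig2 and Sox10 in both libraries. Myrf, the membrane-bound regulator that switches on myelin genes, had 12.85 TPM in replicate 1 and 12.50 in replicate 2. Tcf7l2, the Wnt pathway effector of newly formed cells that thalamic neurons also express, had 9.35 and 7.64. Both libraries thus placed Myrf above Tcf7l2 and below Sox10. The homeobox gene Nkx2-2, which times the start of differentiation, had 7.40 and 4.61 TPM, and its relative Nkx6-2 had 2.13 and 2.10, a ratio of 2.83 ± 0.904. Zfp488, a zinc finger co-regulator of Olig2, had 4.19 and 3.71. Of the words of 31 bases in Zfp488, 18.2% occur in other genes, with 11.5% in 4930533N22Rik, and its level depended on the quantification more than that of any other detected member. Nkx6-2 shares 246 exonic bases with Inpp5a on the other strand (17.86 and 15.23 TPM), so its low level is uncertain as well. Beside Tcf7l2, the 7 thalamus markers summed to 61.17 and 56.21 TPM, and the thalamic factor Gbx2 had 3 counts in replicate 1 and 1 in replicate 2; their part in its level was not tested.

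Among the precursor receptors, Pdgfra, the receptor for platelet-derived growth factor A, had 34.45 TPM in replicate 1 and 41.99 in replicate 2. Cspg4, the NG2 proteoglycan of precursors and also of pericytes, had 14.32 and 13.54, and Pdgfra exceeded it 2.75 ± 0.492 times. The pericyte and smooth muscle markers summed to 100.88 and 94.73 TPM, with Rgs5 highest at 45.8 ± 2.20; the part of Cspg4 that comes from pericytes was not tested. The ligand Pdgfa stood at 21.79 and 19.11 TPM, below its receptor in both libraries.

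Genes of the transition from precursor to myelinating cell differed in how far the libraries lay apart. Bcas1, found in newly forming myelin, had 52.62 TPM in replicate 1 and 55.00 in replicate 2. Gpr17, the receptor that marks committed precursors, had 57.43 and 39.51 and so was higher in replicate 1. Pdgfra over Gpr17 was 0.60 in replicate 1 and 1.06 in replicate 2, so the libraries put the precursor receptor and the receptor of committed cells in opposite order. Enpp6, a choline phosphodiesterase of newly formed oligodendrocytes, had 12.56 and 12.97 TPM, at 0.237 ± 0.00203 of Bcas1. The inositol trisphosphate receptor Itpr2, which astrocytes also express, had 14.01 and 12.51. In these values Enpp6 and Bcas1 lay closer together between the libraries than Gpr17. In the second quantification Enpp6 did not: it had 26.2 TPM in replicate 1 and 17.8 in replicate 2, beside 80.7 and 56.3 for Gpr17 and 89.8 and 83.6 for Bcas1. There Enpp6-206, a transcript of 480 bases annotated as retaining an intron, had 9.45 and 2.29 TPM. The leading Enpp6-201 had 13.9 and 13.0.

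The 3 enzymes of galactolipid synthesis kept their order in both libraries. Ugt8a, the transferase that makes galactosylceramide, the main glycolipid of myelin, had 30.91 TPM in replicate 1 and 30.18 in replicate 2. Fa2h, which hydroxylates the fatty acid of this lipid, had 13.24 and 10.85, and Gal3st1, which converts it to sulfatide, had 9.94 ± 0.0919 as a mean. Ugt8a exceeded Fa2h 2.56 ± 0.316 times and Gal3st1 3.07 ± 0.0235 times. All 3 lay below the median of the mature genes in both libraries.

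Genes of mature cells spanned the widest range, and several of the highest are not restricted to oligodendrocytes. Ptgds, the prostaglandin D synthase of oligodendrocytes and of the leptomeninges, had the highest mean of the 33 in the first quantification, at 182.13 TPM in replicate 1 and 152.88 in replicate 2, although Enpp2 was as high in replicate 1 (182.64). The second quantification put Sirt2 first, with a mean of 275 TPM against 248 for Ptgds and 242 for Enpp2. Sirt2, a tubulin deacetylase abundant in myelin, had 141.23 and 139.75, and Lingo1, a membrane inhibitor of differentiation that neurons also express, had 127.30 and 127.21. By scaled counts Ptgds was 1.13-fold higher in replicate 1. Of 6 meningeal and fibroblast markers, 5 were lower in replicate 2, against 47.5% of the 14715 genes compared between the libraries. These markers summed to 81.83 TPM in replicate 1 and 56.08 in replicate 2, with Col1a1 highest at 25.82 and 16.56. Choroid plexus markers summed to 1445.4 TPM in replicate 1 and 10.02 in replicate 2. The part of either set in the level of Ptgds was not tested. Neuron markers summed to 3306.2 and 3398.2 TPM, and their part in the level of Lingo1 was not tested.

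A middle group of mature genes lay between Gpr37 and Tspan2. The tetraspanin Tspan2 had 52.23 and 57.27, the actin-severing protein Gsn 41.11 and 37.12, and the phosphoinositide-binding protein Plekhb1 37.39 and 41.61. Carbonic anhydrase 2 (Car2) stood at 39.53 and 36.66, and the raft protein plasmolipin (Pllp) at 26.35 and 27.57. Pllp shares 54.2% of its exonic bases with the antisense gene Gm45767, which had 0.38 and 0.36 TPM. The lipocalin Apod, which rises with age in the brain, was at 25.43 and 25.51, and the orphan receptor Gpr37, which restrains precocious differentiation, at 16.02 and 16.21. Car2, Gsn, Plekhb1 and Pdgfra formed a run of neighbours in the order of levels whose ranges over the libraries overlapped. In the whole order of 33 genes, the ranges overlapped for 17 of the 32 neighbouring pairs and were separate for 15.

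The lowest mature genes included a marker of the fully differentiated cell. Tmem88b stood at 7.81 and 7.85 TPM, and Evi2a, which lies within an intron of Nf1, had 3.77 and 2.93. Evi2a shares 19.2% of its exonic bases with Evi2 on the same strand (0.03 TPM in each library). In all, 12 of the 33 genes share exonic bases with another gene, 11 of them with a gene on the other strand. Aspa, the aspartoacylase that frees acetate for myelin lipids, had 1.65 and 2.20 TPM from 60 and 62 counts. Pdgfra exceeded it 19.98 ± 1.27 times in the first quantification and 12.3 times in the second. This ratio is to the lowest detected mature gene: the mean of Pdgfra, 38.2 TPM, was close to the median of the mature genes, 38.1. Ninj2, an adhesion molecule of glia, had 0.30 and 0.36 TPM from 5 and 6 counts. For this gene 3 counts, the upper limit that a count of 0 allows, correspond to 0.180 TPM in each library, so its level is barely above that floor.

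The genes of compact myelin, the sheath's structural proteins, had a median above that of every stage. It was 107 ± 0.972 TPM, and all 10 listed genes were detected, against 58.6% of all nuclear protein-coding genes. Myelin basic protein (Mbp) was highest at 897 ± 6.05. Opalin, which appears late, had the lowest mean, with 2.72 in replicate 1 and 4.24 in replicate 2. Ermn, at 4.65 and 3.66, was below it in replicate 2. Aspa, the lowest detected mature gene, and Opalin were each far below the medians of their lists, 38.1 and 107 TPM. Neither gene therefore stands for the level of its list.

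Other regulators of the lineage were measured as well, from lists that include broadly expressed genes. Of 16 further nuclear regulators, 15 were detected, against 58.6% of all nuclear protein-coding genes, with a median of 17.7 ± 0.537 TPM. The chromatin remodeller Smarca4 had the highest mean in the first quantification, at 50.8 ± 3.61 TPM. In replicate 2, however, Id2 was above it, at 55.29 against 48.26 TPM. The second quantification put Hdac2 first, at 94.2 and 82.4 TPM against 79.0 and 71.7 for Smarca4. The homeobox gene Nkx6-1 was lowest at 0.26 and 0.10. Of 19 signals and receptors, 18 were detected, against the same 58.6%. Their median was 8.93 ± 0.212 TPM, led by the kinase Fyn (113.25 and 113.21). The cytokine Lif was lowest at 0.34 and 0.46. Neither list held a gene at least 1.5-fold apart between the libraries among those that passed the filter given next. Over all genes that passed, the share was 4.18%, so few would be looked for in lists of this size.

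The second question was how far the libraries lay apart. Counts of replicate 2 were set over those of replicate 1 after scaling to effective library size, for genes with at least 50 summed counts and a mean TPM of at least 1; Ninj2 fell short, leaving 32 of the 33. Each ratio sets 1 library against 1, so it has no check by replicates and no p-value; the intervals cover counting error only, at 95% confidence. At least 1.5-fold differences were seen in 2 of the 32 genes, Enpp2 and Nkx2-2, both lower in replicate 2, against 4.18% of 14715 genes in either direction and 2.73% in that direction. The median log2 ratio of the 32 was 0.06, against 0.01 over all genes tested, and 20 were above 0 and 12 below. Scaled by total counts instead, 14 were above 0 and 18 below, so the small ratios carry no direction. The middle 95% of all genes lay between -0.61 and 0.49 on this log2 scale.

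**Figure D2:**
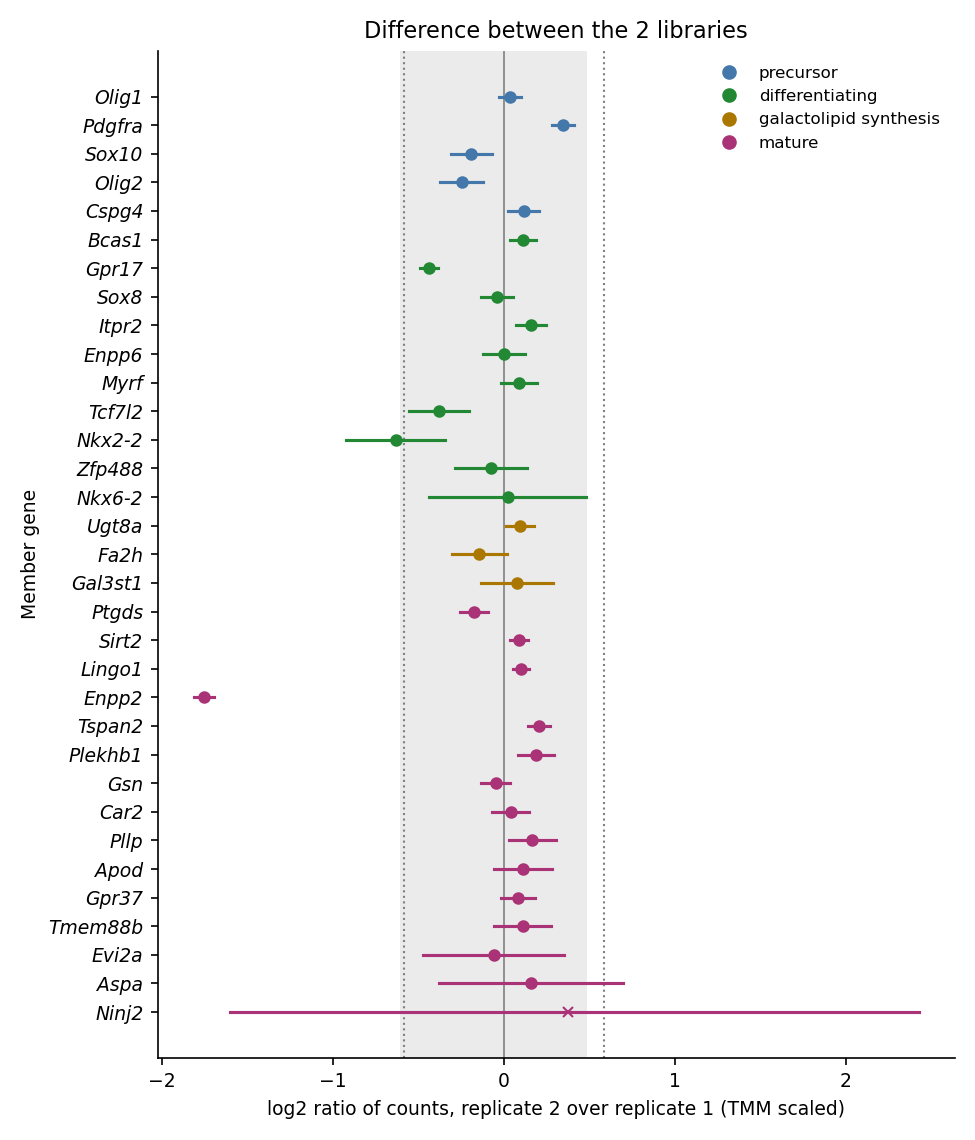
log2 ratio of counts in replicate 2 over replicate 1 for each member (points) with the exact binomial counting interval (lines); the cross marks Ninj2, which missed the filter, the grey band is the central 95% of all genes, and dotted lines mark 1.5-fold. Enpp2 at -1.75 and Nkx2-2 at -0.63 lie to the left of the band, and the other members that passed the filter lie within it.

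Enpp2 was the member that differed most. It encodes autotaxin, a secreted enzyme that makes lysophosphatidic acid and is produced both by oligodendrocytes and by the choroid plexus, which makes cerebrospinal fluid. Its level was 182.64 TPM (10831 counts) in replicate 1 against 51.30 TPM (2981 counts) in replicate 2, and by counts it was 3.36-fold higher in replicate 1 (3.23 to 3.51). Only 47 of the 14715 genes tested had a log2 ratio at or below its value of -1.75. The second quantification gave 384 and 99.9 TPM. All 10 choroid plexus markers moved the same way, each at least 1.5-fold: their summed level was 1445.4 TPM in replicate 1 and 10.02 in replicate 2, with the carrier Ttr at 1375.02 and 5.62. Of the ependymal markers, 4 passed the filter and all were lower in replicate 2, with summed levels of 32.04 and 16.81 TPM over the 6 listed. The part of these cells in the level of Enpp2 was not tested.

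The transcripts of Enpp2 did not differ to the same degree. Enpp2-201, which lacks the exon of 75 bases shown above, had 135.32 TPM in replicate 1 and 34.38 in replicate 2, 3.94 times as much in replicate 1. Enpp2-202, the only annotated transcript with that exon, had 9.61 and 6.70, 1.43 times as much. Its share of the gene's TPM was 5.26% in replicate 1 and 13.1% in replicate 2. In the second quantification the same transcripts were 3.90 and 1.46 times higher in replicate 1, and the share of Enpp2-202 was 4.83% and 12.7%. By expected counts the folds were 3.67 (3.50 to 3.84) for Enpp2-201 and 1.34 (1.17 to 1.52) for Enpp2-202, where the intervals leave out the uncertainty of assigning reads to transcripts. A short annotated transcript was placed differently: Enpp2-205, of 482 bases, had 0.90 and 0.42 TPM in the first quantification but 119 and 23.3 in the second.

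**Figure D3:**
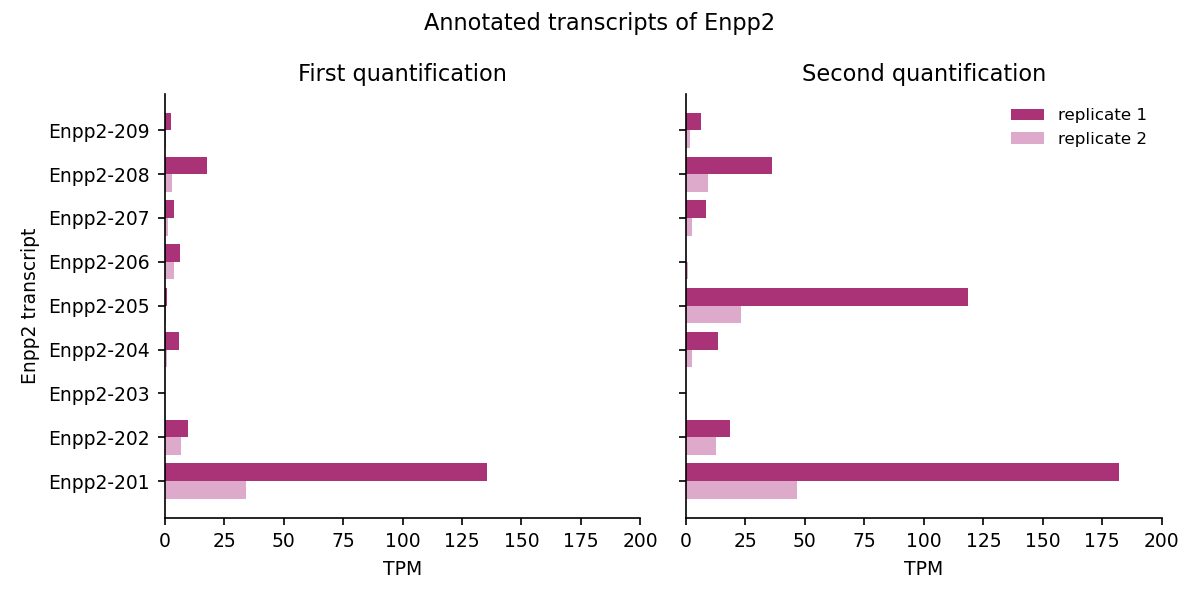
TPM of the 9 annotated Enpp2 transcripts in each library (dark bars replicate 1, light bars replicate 2) in the first quantification (left) and the second (right). Enpp2-201 falls from 135.32 to 34.38 in the first and from 182 to 46.8 in the second, while Enpp2-202 goes from 9.61 to 6.70 and from 18.5 to 12.7.

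Nkx2-2 was 1.55-fold higher in replicate 1 (1.27 to 1.90), from 266 and 159 counts, close to the 1.5-fold limit. It shares 278 exonic bases with its antisense gene Nkx2-2os, which had 12 and 16 counts. Beyond it, Gpr17 was 1.35-fold higher in replicate 1 (1.30 to 1.41) and Tcf7l2 1.30-fold (1.15 to 1.47), while Pdgfra was 1.27-fold higher in replicate 2 (1.22 to 1.33). By these counts the other differentiating genes varied less, with Enpp6 at a ratio of 1.00 (0.919 to 1.09), unlike its values in the second quantification given above, and Bcas1 at 1.08 (1.03 to 1.14). The intervals of Gpr17, Tcf7l2 and Pdgfra leave out a ratio of 1, but their log2 ratios lie within the middle 95% of all genes, and 1 library on each side cannot tell whether they differ between samples. The libraries lay within 1.2-fold for 27 of the 32 genes, and for 78.9% of all genes tested. In compact myelin, 9 of 10 genes had a log2 ratio above 0, against 7724 of the 14715 genes tested. The highest was 0.71 for Opalin, the single gene of that list at least 1.5-fold apart, against 4.18% of all genes tested.

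Levels were next compared between the deposited quantifications. The second quantification gave a higher TPM for all 33 genes; the median detected protein-coding gene was 1.56 times higher in it. Relative to that gene, 1 of the 32 detected members was at least 2-fold apart in both libraries, against 1.23% of 12892 genes. This was Zfp488, at 13.8 and 12.7 TPM in the second quantification, 2.15 times its relative level in the first, and so the ratio of Myrf to Zfp488 fell from 3.22 to 1.52. Aspa was the next furthest, at 1.45 times, with 4.52 and 4.20 TPM. Cspg4 was lowest, at 0.808 times.

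Transcript use was better fixed for some members than for others. A single transcript is annotated for 5 of the 33 genes, Olig1, Olig2, Gpr17, Zfp488 and Tmem88b. For the other 28, the leading transcript held a median of 66.9% of the gene's TPM in the first quantification, and it was the same in both quantifications for 20. Fa2h-201 (94.8% and 92.6% in the first and second quantification), Car2-201 (94.1% and 79.4%) and Sox8-201 (83.9% and 92.4%) were each dominant in both. Myrf-201, the longest annotated form, held 76.8% and 63.3%, and Gsn-201, which starts downstream of Gsn-205, 69.0% and 54.5%. Pdgfra was led by Pdgfra-201 (61.1% and 46.4%). In the first quantification a further 17.4% in replicate 1 and 22.4% in replicate 2 fell on Pdgfra-207, a truncated transcript annotated as lacking a stop codon. In the second, Pdgfra-207 held 13.0% and 14.1%, less than Pdgfra-202 at 23.5% and 26.0%. The leading transcript of Nkx6-2 (83.9% and 72.2%) is annotated as a target of nonsense-mediated decay. By mean share it is the only leading transcript among the 28 genes that is not classed as protein coding. The gene had only 85 and 80 counts. Between replicates 1 and 2 this share went from 89.6% to 78.2% in the first quantification and from 83.2% to 61.1% in the second. Apod was nearly tied in the first quantification. There Apod-201, annotated as retaining an intron, held 43.8% and 40.2%, against 43.6% and 45.3% for the leading Apod-202. In the second quantification Apod-202 held 94.2% as a mean and Apod-201 held 0%. Tcf7l2, with 22 annotated transcripts, was spread most widely among the differentiation factors, with 41.0% and 32.6% on Tcf7l2-209.

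The remaining 8 genes changed their leading transcript with the quantification. Sirt2 was assigned at 64.8% to Sirt2-202 in the first and at 0.0301% in the second, where Sirt2-201, with the exon of 47 bases, led at 51.7%. Bcas1-208 held 51.7% in the first, and in the second Bcas1-201, with the additional exons, led at 61.6%. Ptgds went from Ptgds-202 (40.2%) to Ptgds-201 (68.6%), which start at different sites, and Ugt8a from Ugt8a-201 (90.0%) to Ugt8a-203 (72.3%), which also starts elsewhere. Sox10, Plekhb1 and Aspa also switched, and Ninj2, with 5 and 6 counts, gives no information on transcripts. For these genes the gene level is given above and the division among transcripts is left uncertain.

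**Figure D4:**
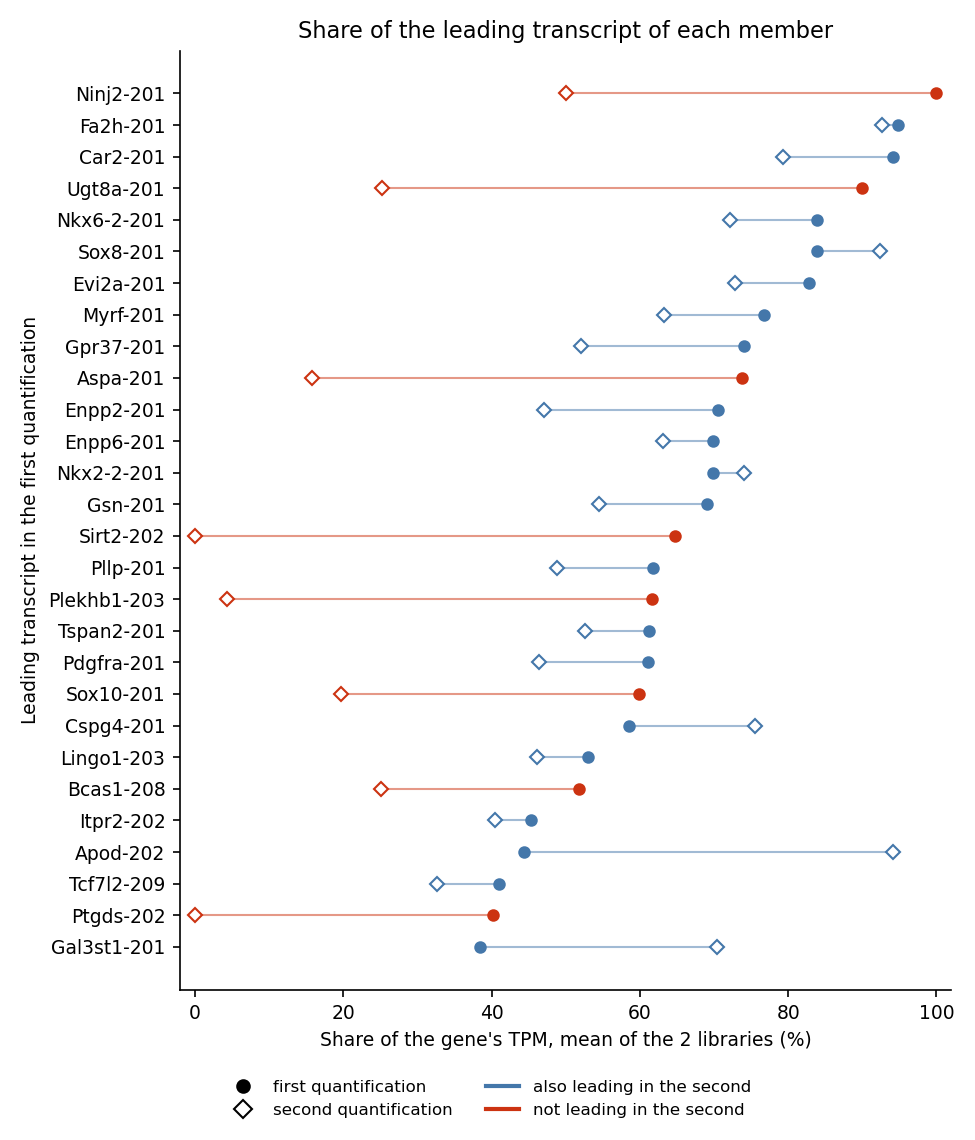
Share of the gene's TPM, in percent, held by the transcript that led in the first quantification, for the 28 members with more than 1 annotated transcript; circles are the first and diamonds the second quantification, as means of the libraries. Blue marks the 20 genes with the same leading transcript in both, red the 8 where another led in the second; Sirt2-202 moves from 64.8% to 0.0301%.

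Promoter sequences of the RefSeq annotation (GRCm38.p6) matched 24 of the 33 genes with 32 entries, read over the 250 bases before the start. The SOX family motif, searched as ACAAAG or ACAATG on both strands, was present in 34.4% of the members' entries and in 25.2% of all 32851 promoters. The E-box forms CAGCTG or CATATG, both covered by the general E-box CANNTG, were present in 25.0% and 16.1%, and CANNTG itself in 62.5% and 66.2%. These shares are descriptions of letters in a window. The members' promoters held a median of 12 CG dinucleotides against 6 over all promoters. The promoter of Ptgds, the member with the highest mean in the first quantification, is shown because it holds 2 copies of CAGCTG, in capitals. It lies at chr2:25469750-25469999 on the minus strand, just before the start of Ptgds-203, and holds 2 CG dinucleotides. The window lies downstream of the start of Ptgds-202 (chr2:25470046), which led in the first quantification. It contains the start of Ptgds-201 (chr2:25469842), which led in the second.
Ptgds promoter: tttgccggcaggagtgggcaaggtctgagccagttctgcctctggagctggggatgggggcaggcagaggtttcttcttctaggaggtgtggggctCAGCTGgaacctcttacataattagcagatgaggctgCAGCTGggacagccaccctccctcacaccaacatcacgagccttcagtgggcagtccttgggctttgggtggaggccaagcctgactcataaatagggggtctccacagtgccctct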

How the data were processed

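The deposited tables were made against mm10 and GENCODE M21, per the file headers and accompanying notes. The first quantification has the layout of RSEM output, from alignments to the transcriptome; per the file headers it gives expected counts and TPM, made by the authors over all entries, plus the percent that a transcript holds within its gene. The second has the layout of kallisto output, from the reads, and lists, per the file headers, TPM and estimated counts, summed here by gene. The aligner, its version and how strand was counted were not given in the sources used here. Spike-ins and entries without a gene name held 0.430% and 0.423% of counts and were left out. Expected counts were rounded and scaled with edgeR 4.0.16 (TMM, R 4.3.3), with a prior count of 0.5. DESeq2 1.42.0 size factors were an alternative. Intervals are exact (Clopper-Pearson). Quantifications were compared with a pseudocount of 0.1 TPM. The ratio was tested on simulated data. Other software was Python 3.11.15, numpy 2.4.6, pandas 2.3.3, scipy 1.17.1 and matplotlib 3.10.9. The members and lists were chosen with earlier results of these data known. All members are named; from each other list the highest and lowest genes are named, with those set beside a member.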

Additional observations from a re-analysis of the deposited data

How the results depend on the processing

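In the second quantification the medians were 57.8 TPM for mature, 30.6 for precursor, 19.0 for differentiating and 16.9 for galactolipid genes, and with TPM rescaled over nuclear protein-coding genes 86.6, 47.6, 29.0 and 27.4, both in the same order. Without 1 replicate they ranged from 36.7 to 37.4, 19.3 to 22.6, 12.5 to 12.7 and 10.85 to 13.2, in the same order except that galactolipid genes passed differentiating genes without replicate 2. The number of members detected was 32 under every alternative except a limit of 5 TPM, which left 27. Members apart between the libraries numbered 5 at 1.2-fold, 1 at 2-fold (Enpp2), 1 with deposited TPM and a pseudocount of 1, and 2 under each other alternative. The members' median log2 ratio was -0.0521 with deposited TPM at a pseudocount of 0.1, -0.0505 at 1, -0.0272 by total counts and -0.0037 by spike-ins. It stayed above 0 under the other alternatives: 0.0425 with DESeq2 size factors, 0.0580 with a prior count of 2, 0.0762 without the filter and 0.0759 in the second quantification. Enpp2 stayed between -1.84 and -1.73. Pdgfra over Gpr17 was 1.06 without replicate 1 and 0.5999 without replicate 2. Without replicate 1 Enpp2 over Enpp6 was 3.96, and without replicate 2 it was 14.5. The median share of the leading transcript was 63.2% in the second quantification and 65.1% to 65.7% in single libraries. The same leading transcript was found for 19 members in each library. No paired analysis was possible because there is 1 group. At this depth, Ninj2 and the transcripts of Aspa and Nkx6-2 are limited by counts.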
